A study of Mus musculus with 46 samples.

Results

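Nuclear genes of the mitochondrial respiratory chain and the ATP synthase were followed in mouse liver after sunscreen was applied to the skin. The members were taken by symbol: every row of the deposited value table with 1 gene symbol beginning with Ndufa, Ndufb, Ndufc, Ndufs, Ndufv, Sdha, Sdhb, Sdhc, Sdhd, Uqcr, Cox4 to Cox8 or Atp5, pseudogenes left out. That gave 119 rows for 93 genes, out of 19938 genes with such a row, and the row with the highest mean stood for each gene. By role, 34 genes encode subunits of complex I, 4 of complex II, 8 of complex III, 11 of complex IV (Ndufa4 included), 17 of the ATP synthase, 11 are assembly factors and 8 are isoforms that other tissues use more than liver does. The 13 subunits encoded by mitochondrial DNA have no single-symbol row and were not analysed here.

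The animals were SKH:QS mice, virgin in one experiment and at about 17 days of gestation in another. Sunscreen was put on the back 6 times in 4 days and liver was taken on day 5. The product was a sunscreen formulation without metal oxide, the same kind of product with zinc oxide microparticles (micro ZnO) or with zinc oxide nanoparticles (nano ZnO), both made from the isotope 68Zn, and untreated mice got none. All wore collars against licking and were housed singly, and age is not given in the labels. Virgin groups held 6 mice each. The pregnant formulation and nano ZnO groups held 6 mice each, and the pregnant micro ZnO and untreated groups held 5 each.

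The respiratory chain passes electrons from NADH, through complex I, or from succinate, through complex II, to ubiquinone, then through complex III, cytochrome c and complex IV to oxygen. Complexes I, III and IV pump protons, and the ATP synthase uses the return flow to make ATP. Liver is rich in mitochondria, and most subunits are made from nuclear genes that share regulators such as NRF1 and the ETS factor GABPA, with PGC-1alpha (Ppargc1a) as a coactivator.

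Promoters of 77 of the 93 genes were found in the RefSeq table of GRCm38.p6. In the 250 bases before the gene start, searched on both strands, the NRF1 motif (GCGC and again GCGC, with NN between) stood in 15 of the 77 genes (19.5%), against 5.64% of all 27025 genes in that table. The GABPA motif CCGGAAG also stood in 15 (19.5%, against 7.83%), the YY1 motif AANATGGCG in 4 (5.19%, against 1.29%) and the cyclic AMP element TGACGTCA in 4 (5.19%, against 1.77%). The 150 bases before the start are shown for 6 genes named in the results below. They are read along the gene from 5′ to 3′, with matches to any of these motifs in capitals. The windows are chr13:114388095-114388244 (minus strand) for Ndufs4, chr6:126849145-126849294 (minus) for Ndufa9, chr4:123718187-123718336 (minus) for Ndufs5, chr13:74350241-74350390 (minus) for Sdha, chr4:24897933-24898082 (plus) for Ndufaf4 and chr9:50603850-50603999 (minus) for Sdhd.
Ndufs4: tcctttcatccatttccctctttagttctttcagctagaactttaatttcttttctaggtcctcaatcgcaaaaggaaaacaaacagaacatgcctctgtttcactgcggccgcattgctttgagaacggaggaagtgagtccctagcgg
Ndufa9: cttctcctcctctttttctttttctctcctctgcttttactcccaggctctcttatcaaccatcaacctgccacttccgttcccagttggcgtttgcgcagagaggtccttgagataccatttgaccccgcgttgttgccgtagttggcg
Ndufs5: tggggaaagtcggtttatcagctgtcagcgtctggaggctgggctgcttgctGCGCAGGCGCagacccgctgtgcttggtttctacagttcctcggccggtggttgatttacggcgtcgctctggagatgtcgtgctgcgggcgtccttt
Sdha: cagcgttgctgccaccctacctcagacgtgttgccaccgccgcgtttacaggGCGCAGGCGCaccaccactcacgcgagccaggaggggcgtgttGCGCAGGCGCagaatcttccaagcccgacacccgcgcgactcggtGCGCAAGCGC
Ndufaf4: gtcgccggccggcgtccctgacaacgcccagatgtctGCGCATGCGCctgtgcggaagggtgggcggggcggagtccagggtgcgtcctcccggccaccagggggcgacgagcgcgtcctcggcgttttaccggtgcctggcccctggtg
Sdhd: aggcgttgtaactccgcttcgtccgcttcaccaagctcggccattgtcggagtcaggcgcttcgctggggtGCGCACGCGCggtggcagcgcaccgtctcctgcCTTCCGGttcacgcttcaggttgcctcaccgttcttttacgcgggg

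Sdha had 3 NRF1 matches, beginning 98, 55 and 10 bases before the start. Ndufs5, Ndufaf4 and Sdhd had 1 each, at 98, 113 and 79 bases, and Sdhd also had a GABPA match at 46 bases. In Ndufs4 and Ndufa9 these letters do not occur in the window, which says nothing about the factors.

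Values are log2 signals made by the authors with RMA, and changes below are differences of group means on that scale ± SE. A gene was called at an adjusted p under 0.05 in limma, adjusted over all 23410 probe sets with a symbol. The virgin and pregnant arrays had been scaled apart, with array medians of 4.66 to 4.90 in virgin and 3.98 to 4.12 in pregnant mice. The 9 hepatocyte markers measured were bright on every array, with a mean of 12.18 to 12.44 in virgin and 11.75 to 12.02 in pregnant mice. Of the 93 genes, 74 lay in the brightest 20% of probe sets in either experiment. The width of the arrays differed between virgin groups: the interquartile range of the log2 values was 2.83 ± 0.05 (SD) with formulation, 2.91 ± 0.03 with micro ZnO, 2.90 ± 0.06 with nano ZnO and 2.97 ± 0.07 in untreated mice, and formulation against untreated had an adjusted p of 0.026 in a two-sided exact permutation test (12 comparisons). A score of 9 clock genes also differed: it averaged -0.30 ± 0.62 (SD) with formulation, 0.67 ± 0.73 with micro ZnO, 0.74 ± 0.24 with nano ZnO and -1.11 ± 0.21 in untreated virgin mice. Replicates 3 and 4 of pregnant micro ZnO lay apart from the other pregnant arrays on the first principal component, at -47.1 and -31.2. Among virgin arrays, formulation replicate 5 (-33.2) and untreated replicate 1 (34.8) lay at the ends.

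Formulation without particles gave the most calls in virgin mice: 18 of 34 complex I genes, 2 of 4 complex II genes and 5 of 11 assembly factors fell. Complex III had 2 of 8 genes lower, the ATP synthase 4 of 17 and complex IV 1 of 11. Over all 93 genes 32 fell and 3 rose, where 15% of all probe sets fell and 11.5% rose. Bright probe sets fell more often than dim ones in this comparison: 40.4% of the brightest 20% fell, against 28 of the 74 bright genes described here. These bright genes thus did not fall more often than bright probe sets as a whole. The median change was -0.12 over the 93 genes, 0.03 over all probe sets and -0.17 over the brightest 20%. The NRF1 motif stood in 6 of the 29 fallen genes with a promoter and in 9 of the 47 that were not called. The GABPA motif gave the same counts. In bulk liver, fewer cells of a type and less RNA per cell cannot be told apart.

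**Figure D1:**
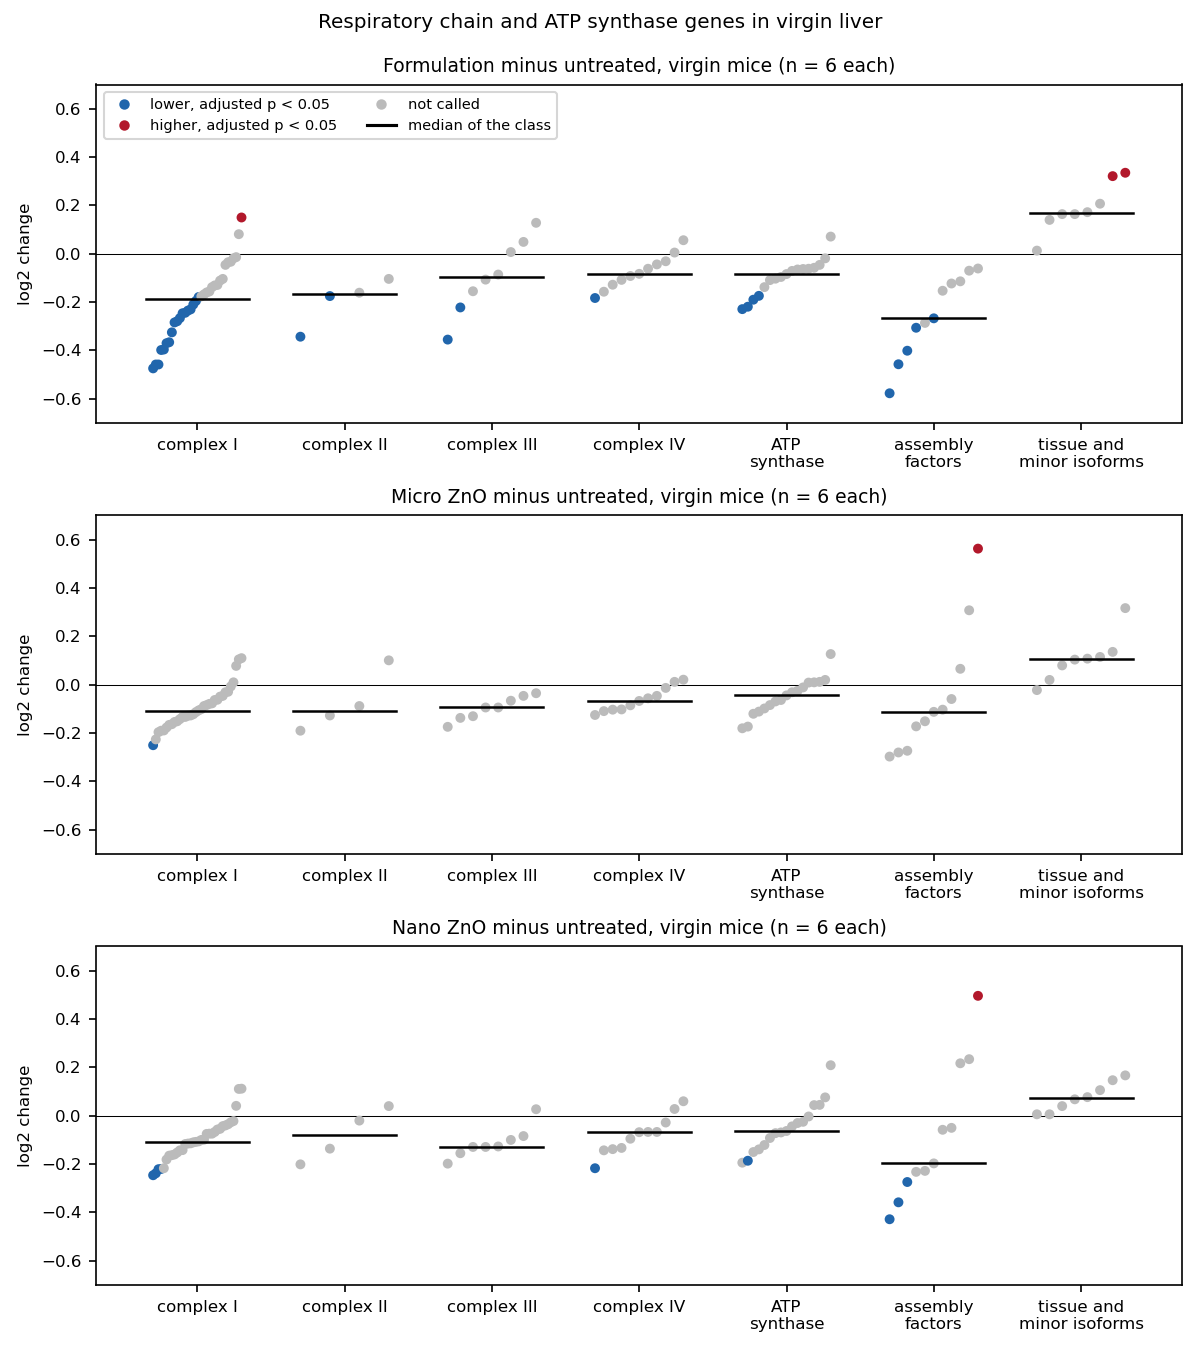
Log2 change of each of the 93 genes against untreated virgin mice (y axis), sorted within each class of subunits (x axis), for formulation (top), micro ZnO (middle) and nano ZnO (bottom), 6 mice a group. Blue and red points were called lower and higher, grey points were not called, and bars are class medians: complex I and assembly factors lie lowest in the top panel, and 1 assembly factor, Ndufaf4, is the red point in the lower panels.

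Among complex I genes the largest fall was in Ndufs1, the iron-sulfur subunit of the arm that oxidises NADH (chr1:63143592-63176822, GRCm38.p6). Its lowest, median and highest log2 values were 7.92, 8.39 and 8.56 with formulation, against 8.62, 8.84 and 8.93 in untreated mice. Every formulation array was thus below every untreated one, and the change was -0.47 ± 0.10 (adjusted p = 0.00187), a fold of 0.72. Ndufs4, an accessory subunit of the same arm, ran from 7.88 through 8.06 to 8.28 with formulation, against 8.45, 8.51 and 8.71 in untreated mice, again without overlap (-0.46 ± 0.08, adjusted p = 0.000431). Ndufa9, which sits where the peripheral arm meets the membrane arm, had 8.07, 8.48 and 8.73 with formulation, against 8.72, 8.97 and 9.02 in untreated mice. The highest formulation array of Ndufa9 just passed the lowest untreated one, and the change was -0.46 ± 0.09 (adjusted p = 0.000764).

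The other complex I genes that fell came from every part of the enzyme. Ndufs8, which carries iron-sulfur clusters close to the ubiquinone site, fell by 0.40 ± 0.08. The membrane arm genes Ndufb6 (-0.40 ± 0.08), Ndufb5 (-0.37 ± 0.09), Ndufc1 (-0.37 ± 0.08), Ndufs5 (-0.32 ± 0.07) and Ndufb8 (-0.28 ± 0.06) fell too. Ndufv1, the subunit that binds NADH and FMN, fell by 0.19 ± 0.07 (adjusted p = 0.0288), and its partner Ndufv2 by 0.24 ± 0.07. In the opposite direction, Ndufa6 rose by 0.15 ± 0.06 (adjusted p = 0.0456). Of the 34 complex I genes 32 had a negative change and 12 were lower in every formulation array than in any untreated one.

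Sdha, the flavoprotein of complex II that oxidises succinate, had 9.64, 9.80 and 9.97 with formulation, against 10.01, 10.15 and 10.28 in untreated mice. These ranges did not overlap, and the gene fell by 0.34 ± 0.07 (adjusted p = 0.00137). Its iron-sulfur partner Sdhb fell by 0.17 ± 0.06 (adjusted p = 0.0375). In complex III the core subunit Uqcrc2 had 9.79, 9.98 and 10.05 with formulation, against 10.15, 10.34 and 10.37 in untreated mice (-0.35 ± 0.07, adjusted p = 0.000547). Uqcrc1, the other core subunit, fell by 0.22 ± 0.07, while Uqcrfs1, the Rieske iron-sulfur protein, was at -0.11 ± 0.07 (adjusted p = 0.248). Across the 93 genes 21 were lower without overlap and 2 higher, where 6.69% and 2.81% of all probe sets were. Most of the 93 genes are bright, and bright probe sets fell more often in this comparison. Their share without overlap is not given here, so an excess over probe sets of like brightness is not shown.

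Complex IV and the catalytic head of the ATP synthase gave small values. Cox4i1, the ubiquitous subunit 4, had 9.65, 9.76 and 9.82 with formulation, against 9.71, 9.76 and 9.77 in untreated mice (0.01 ± 0.05, adjusted p = 0.953, 95% interval -0.11 to 0.12). Cox5a (0.06 ± 0.07), Cox8a (-0.04 ± 0.06), Cox7a2 (-0.16 ± 0.06) and Ndufa4 (-0.13 ± 0.06) were not called. The 1 complex IV gene called was Cox6a1, the subunit 6a isoform used in liver, which fell by 0.18 ± 0.06 (adjusted p = 0.0335). Atp5a1 and Atp5b, the alpha and beta subunits of the head, were at -0.10 ± 0.06 and -0.10 ± 0.07 and were not called. Atp5c1, the gamma subunit of the rotor (-0.19 ± 0.06), Atp5d, its delta subunit (-0.17 ± 0.06), Atp5pb, the stator subunit b (-0.22 ± 0.07), and Atp5g1, which encodes ring subunit c (-0.23 ± 0.08), fell.

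**Figure D2:**
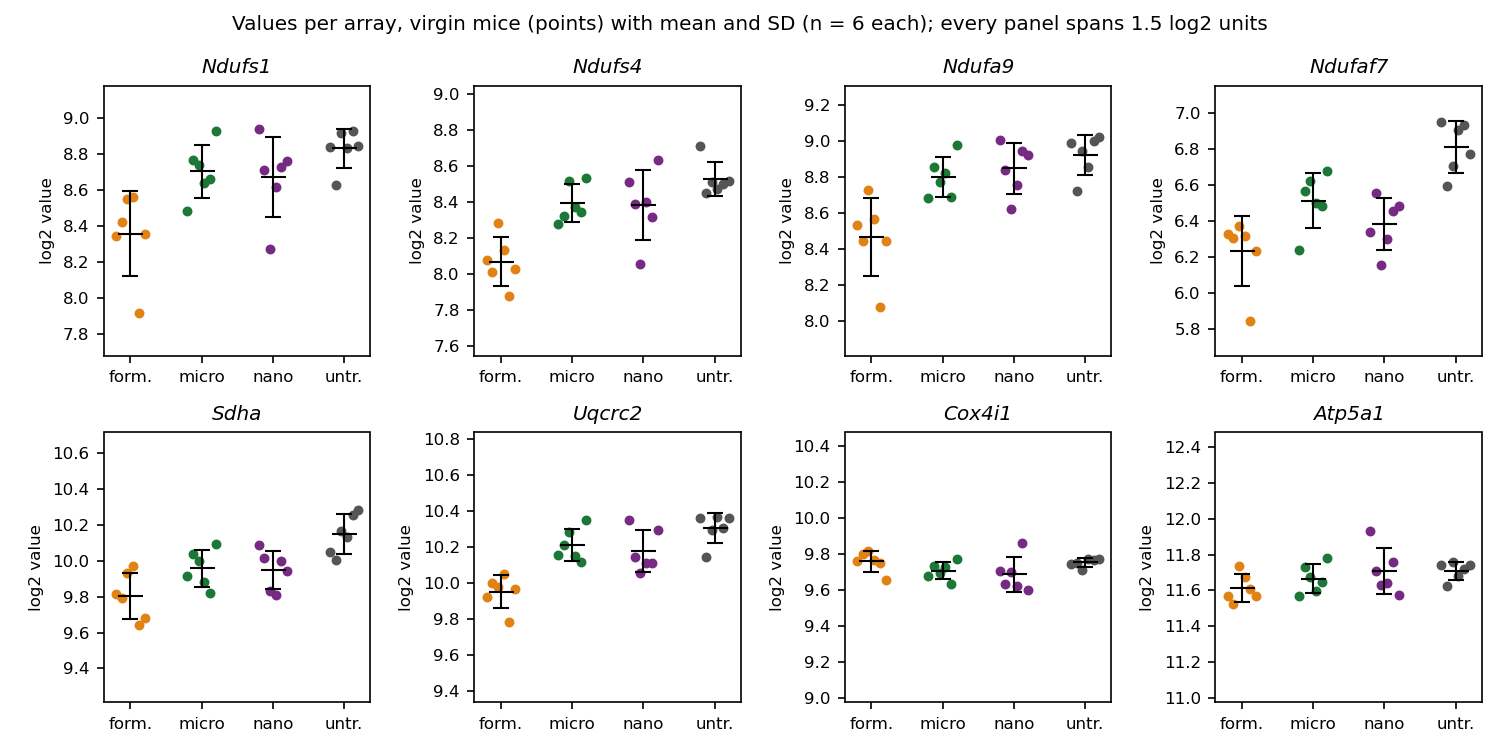
Log2 values of 8 genes (y axis) in each virgin array by group (x axis: formulation, micro ZnO, nano ZnO, untreated), with mean and SD of 6 mice; every panel spans the same height. Formulation lies lowest for Ndufs1, Ndufs4, Ndufa9, Ndufaf7, Sdha and Uqcrc2, while the 4 groups of Cox4i1 and Atp5a1 lie close together.

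Assembly factors, which build the complexes without staying in them, held the largest fall of all 93 genes. Ndufaf7, a methyltransferase needed early in complex I assembly, had 5.85, 6.31 and 6.37 with formulation, against 6.60, 6.84 and 6.95 in untreated mice. The ranges did not overlap, and the change was -0.58 ± 0.09 (adjusted p = 0.000152). Ndufaf1, of the membrane arm assembly complex, fell by 0.46 ± 0.10, and Ndufaf2, a late-acting factor, by 0.27 ± 0.09. Sdhaf2, which helps attach the flavin to Sdha, fell by 0.40 ± 0.08, and Sdhaf3, which serves Sdhb, by 0.31 ± 0.10. All 11 assembly factors had a negative change in the row used, but a second row of Sdhaf4 rose by 0.26 (adjusted p = 0.0389), where the row used was at -0.29 (adjusted p = 0.0641).

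The 8 isoforms of other tissues went the other way, with 8 of 8 changes positive. Cox6a2, the heart and muscle form of subunit 6a, rose by 0.34 ± 0.10 (adjusted p = 0.0138), and Ndufa4l2, a paralog of Ndufa4 known to be induced in hypoxia, by 0.32 ± 0.08 (adjusted p = 0.00449). Cox8b (0.21 ± 0.14), Cox4i2 (0.17 ± 0.09), Cox7b2 (0.16 ± 0.09), Cox8c (0.16 ± 0.11), Cox6b2 (0.14 ± 0.09) and Cox7a1 (0.01 ± 0.08) were not called. These rows were dim, with group means of 3.36 to 5.86 in virgin formulation and untreated mice. The share of dim probe sets that rose is not given here. After the further quantile normalization described below, Cox6a2 (0.31) and Ndufa4l2 (0.22) were still called, and the other isoforms ran from -0.11 (Cox7a1) to 0.09 (Cox8b). Of 8 skeletal muscle markers 5 rose, among them Ckm (0.42), where 11.5% of all probe sets rose. Their mean per array was 4.87 to 5.07 with formulation and 4.68 to 4.93 in untreated mice. It was also 4.83 to 5.06 with micro ZnO and 4.89 to 5.17 with nano ZnO. With nano ZnO, however, Cox6a2 averaged 5.56 and Ndufa4l2 5.01, against 5.86 and 5.32 with formulation. The part of muscle RNA in these 2 calls was not tested.

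Neighbouring mitochondrial genes also fell in virgin formulation mice. Cyc1, the cytochrome c1 of complex III, which the symbol rule leaves out, fell by 0.31 ± 0.07 (adjusted p = 0.00185), whereas Cycs, cytochrome c itself, was at -0.15 ± 0.12. Of 34 assembly factors outside the symbol rule 23 fell, and of 18 tricarboxylic acid cycle and pyruvate dehydrogenase genes 12 fell. Of 77 mitochondrial ribosomal protein genes 48 fell and 1 rose. In this comparison 15% of all probe sets and 40.4% of the brightest ones fell. How many genes of these lists are that bright is not given here, so their counts have no matched background. Tfam, which packages and transcribes mitochondrial DNA, fell by 0.54 ± 0.11 (adjusted p = 0.00107). Ppargc1a rose by 0.80 ± 0.29 (adjusted p = 0.0401), with 5.64, 6.13 and 7.70 in formulation mice, against 5.20, 5.50 and 5.95 in untreated mice, a wide spread in which 1 array stood far above the rest. That call was lost in 8 of the 10 other settings of the fit and in 7 of 12 fits that left out 1 array.

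Array width and clock genes moved with this comparison. After a further quantile normalization that gave all virgin arrays one distribution, 22 of the 93 genes were called, 16 lower and 6 higher, with a median of -0.02. Of the 32 genes that fell, 14 were lower there too, namely 8 of complex I, 1 each of complexes II and III and 4 assembly factors, and none of complex IV or the ATP synthase. When the clock score entered the fit, 14 of the 32 were lower, and 12 were lower in all 3 fits: Ndufs1, Ndufs4, Ndufs8, Ndufa9, Ndufa10, Ndufb6, Ndufc1, Sdha, Uqcrc2, Ndufaf1, Ndufaf7 and Sdhaf2. With the interquartile range of the array as a covariate none of the 93 was called in limma, while Ndufs1 was at -0.23 and Sdha at -0.25. Width and group go together in these arrays. The shares of all probe sets called in these other fits are not given here, so the counts cannot be set against a background. In the comparison of formulation with untreated virgin mice, 5 of 12 neutrophil markers rose and 5 of 10 endothelial markers fell. Among all probe sets 11.5% rose and 15% fell there, and 40.4% of the brightest ones fell. How many of these markers are that bright is not given here, so the endothelial count has no matched background. Apart from skeletal muscle, counts for the other cell marker lists are not given here. The part of neutrophils or endothelial cells in the values was not tested.

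**Figure D3:**
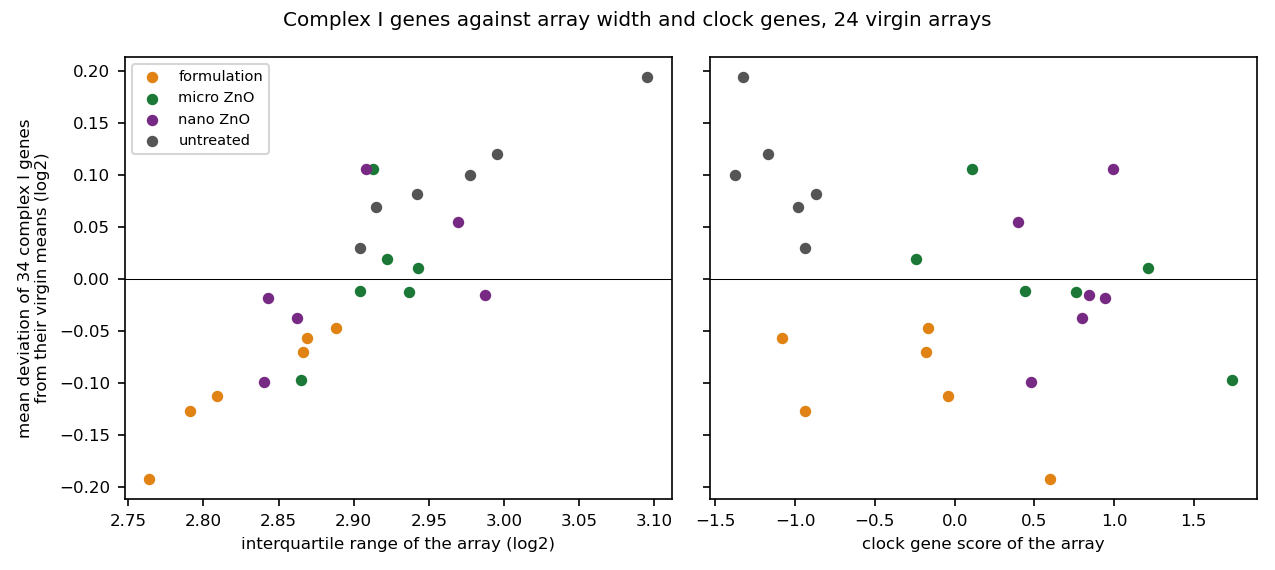
Mean deviation of the 34 complex I genes from their virgin means (y axis, log2) against the interquartile range of the array (left) and the clock gene score (right), for 24 virgin arrays coloured by group. Formulation arrays, at -0.19 to -0.05, lie below untreated arrays, at 0.03 to 0.19, and also have the narrower distributions. Arrays of either particle group, at -0.10 to 0.11, overlap both on the y axis. Their mean clock scores, 0.67 with micro ZnO and 0.74 with nano ZnO, are above those of formulation (-0.30) and untreated mice (-1.11).

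Micro ZnO changed 2 of the 93 genes against untreated virgin mice, 1 in each direction (background 1.63% higher and 2.8% lower). Nano ZnO changed 10, 1 higher and 9 lower (background 4.77% higher and 7.18% lower). In the brightest 20% of probe sets 7.58% were lower with micro ZnO and 21.4% with nano ZnO. Of the bright genes described here 1 of 73 and 7 of 74 were lower, a smaller share in both arms. The gene that rose was the same in both arms: Ndufaf4, which acts with Ndufaf3 in building the ubiquinone-binding module of complex I. Its 6 values were 6.92, 6.90, 6.83, 6.88, 7.20 and 7.54 with micro ZnO and 7.35, 6.81, 7.02, 7.10, 6.64 and 6.96 with nano ZnO, against 6.96, 6.23, 6.52, 6.29, 6.21 and 6.69 in untreated mice. Of the untreated arrays 1 lay within the range of micro ZnO and 2 within that of nano ZnO. The rise was 0.56 ± 0.14 with micro ZnO (adjusted p = 0.0196, fold 1.48) and 0.50 ± 0.14 with nano ZnO (adjusted p = 0.0199, fold 1.41), 2 comparisons that share their untreated mice.

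**Figure D4:**
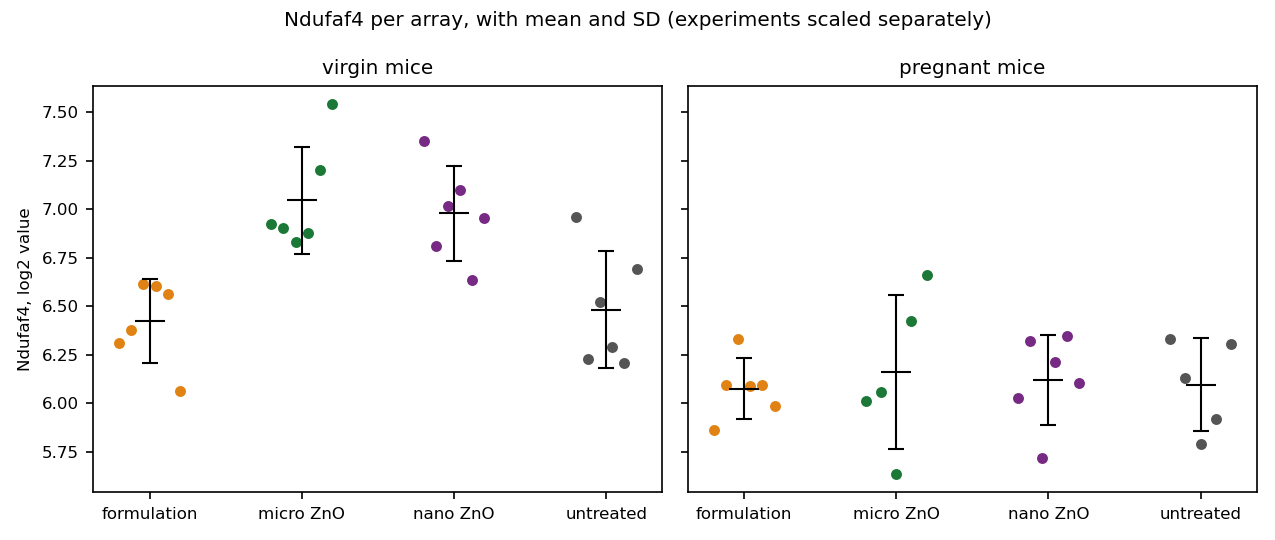
Ndufaf4 log2 value (y axis) in every array by group (x axis), with mean and SD, in virgin (left) and pregnant (right) mice. In virgin mice the means are 6.42 with formulation, 7.05 with micro ZnO, 6.98 with nano ZnO and 6.48 in untreated mice; the pregnant groups, scaled apart from the virgin ones, average 6.08 to 6.16.

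Formulation mice did not share that value of Ndufaf4. They had 6.31, 6.38, 6.61, 6.61, 6.56 and 6.06, below every micro ZnO and nano ZnO array, and their change against untreated mice was -0.06 ± 0.14. Against formulation, Ndufaf4 was higher by 0.62 ± 0.14 with micro ZnO (adjusted p = 0.00811) and by 0.56 ± 0.14 with nano ZnO (adjusted p = 0.0249). Clock scores of the particle arms, -0.24 to 1.74 and 0.40 to 0.99, did not overlap those of untreated mice, -1.38 to -0.87. When the clock score entered the fit, Ndufaf4 stayed at 0.65 and 0.58 against untreated mice, with adjusted p of 0.491 and 0.517, and at 0.67 and 0.61 against formulation, with adjusted p of 0.0255 and 0.0812. With the interquartile range as a covariate the adjusted p against formulation was 0.113 and 0.142. The call against untreated mice was lost without untreated replicate 5 in both arms and without nano ZnO replicate 1 or 4 in the nano arm. Against formulation the nano call was lost without formulation replicate 1, 2 or 6 or nano ZnO replicate 1 or 6.

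The 9 falls with nano ZnO were in 4 of 34 complex I genes, 3 of 11 assembly factors, 1 of 11 complex IV genes and 1 of 17 ATP synthase genes. Ndufaf7 fell by 0.43 ± 0.09 (adjusted p = 0.00402), Ndufaf1 by 0.36 ± 0.10 and Ndufaf2 by 0.27 ± 0.09. Ndufa1, a small membrane subunit needed for assembly, fell by 0.25 ± 0.08 and Ndufs5 by 0.24 ± 0.07. Outside complex I, Cox6a1 fell by 0.22 ± 0.06 (adjusted p = 0.0254) and Atp5k, subunit e of the ATP synthase, by 0.19 ± 0.06. With micro ZnO the 1 gene that fell was Ndufs5, whose values of 8.13, 8.15 and 8.21 lay below all untreated values of 8.28, 8.40 and 8.58 (-0.25 ± 0.07, adjusted p = 0.0283). With micro ZnO a single call was left when replicate 3 or 4 of that arm, or untreated mouse 4 or 5, was dropped, which makes the count 1. The count with nano ZnO was 3 without nano ZnO replicate 4, 6 without replicate 2 or 6, 5 without untreated replicate 1 and 6 without untreated replicate 3, and when the clock score entered the fit it was 0 in either arm.

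Beyond the chain itself, Coq10b, a coenzyme Q binding protein, rose by 0.88 ± 0.22 with micro ZnO (adjusted p = 0.0242) and by 1.12 ± 0.22 with nano ZnO (adjusted p = 0.00258). Its lowest, median and highest values were 6.37, 6.95 and 7.85 with micro ZnO and 6.84, 7.37 and 7.54 with nano ZnO, against 5.76, 6.18 and 6.48 in untreated mice. All nano ZnO arrays were above all untreated ones. When the clock score entered the fit, its change turned to -0.27 and -0.08. Ppargc1a (0.51 ± 0.29 and 0.61 ± 0.29) and Tfam (-0.18 ± 0.11 and -0.29 ± 0.11) were not called in either particle arm.

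Micro ZnO was higher than formulation in 10 of 93 genes and lower in 0 (background 5.14% and 1.69%, and 14.8% higher in the brightest 20%). Beside Ndufaf4 these were the assembly factor Sdhaf1 (0.38 ± 0.10), Ndufs1 (0.35 ± 0.10), Ndufa9 (0.34 ± 0.09), Ndufs4 (0.33 ± 0.08), Ndufb5 (0.31 ± 0.09), Sdhd (0.26 ± 0.07), Uqcrc2 (0.26 ± 0.07), Ndufb6 (0.24 ± 0.08) and Atp5c1 (0.21 ± 0.06). Nano ZnO was higher in 7 and lower in 1 (background 2.52% and 0.722%, and 7.45% higher in the brightest 20%). Of the 74 bright genes 9 were higher with micro ZnO and 5 with nano ZnO. Beside Ndufaf4 the 7 held Ndufaf6, an assembly factor (0.37 ± 0.08, adjusted p = 0.00918), Ndufa9 (0.38 ± 0.09), Ndufb6 (0.34 ± 0.08), Ndufs4 (0.32 ± 0.08), Ndufc1 (0.29 ± 0.08) and Atp5c1 (0.27 ± 0.06). The 1 lower was Ndufa4l2 (-0.32 ± 0.08). These comparisons use the formulation mice of the section above, so the genes are not an independent set. Leaving out 1 array moved the micro ZnO count between 2 and 14. It was 2 without formulation replicate 5, 3 without micro ZnO replicate 6, 5 without formulation replicate 1 or 2 or micro ZnO replicate 2, and 6 without formulation replicate 6 or micro ZnO replicate 3 or 5. The nano ZnO count was 3 without nano ZnO replicate 6, 5 without formulation replicate 2 or 6 or nano ZnO replicate 1, and 14 without nano ZnO replicate 3.

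Nano ZnO and micro ZnO could not be told apart in these genes. Of the 93 genes 0 were called in limma, as were 0 of all 23410 probe sets (0%), and 2 had an unadjusted p under 0.05 (4.72% of all probe sets did): Atp5g2 (-0.13 ± 0.06) and Ndufa7 (0.13 ± 0.06). Changes of nano ZnO minus micro ZnO ran from -0.17 to 0.15, and the 95% intervals of the 93 genes lay within -0.45 to 0.31.

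In pregnant mice 0 of the 93 genes were called in any of the 6 comparisons. Against untreated mice 0.0598% of all probe sets were called with formulation, 0.107% with micro ZnO and 0.0214% with nano ZnO, so few calls were made anywhere on these arrays. At an unadjusted p under 0.05 stood 15, 12 and 16 of the 93, where 12.3%, 9.08% and 10.2% of all probe sets stood. In the brightest 20% the shares were 19.2%, 12.2% and 13.9%, against 13, 10 and 14 of the 74 bright genes. Sdha came first in all 3 arms. Its untreated values of 9.48, 9.53, 9.54, 9.45 and 9.48 lay above all treated ones, which were 8.89, 9.14 and 9.23 (lowest, median and highest) with formulation, 9.15, 9.41, 8.97, 8.86 and 9.22 with micro ZnO and 8.95, 9.16 and 9.29 with nano ZnO. The changes were -0.41 ± 0.09 with formulation (adjusted p = 0.114), -0.38 ± 0.10 with micro ZnO (adjusted p = 0.151) and -0.35 ± 0.09 with nano ZnO (adjusted p = 0.220), and all 3 rest on the same 5 untreated mice. Sdha was called with formulation when arrays were weighted by quality (-0.39) and with micro ZnO when micro ZnO replicate 2 was left out (-0.45). Mean clock scores of pregnant mice were -0.80 untreated, 0.43 with formulation, 0.31 with micro ZnO and -0.02 with nano ZnO. Neutrophil marker means per array were 4.1 to 4.5, 4.4 to 4.9, 4.9 to 6.0 and 4.4 to 6.2 in the same order. The part of either in the Sdha values is not given here.

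Ndufaf7 (-0.40 ± 0.11, -0.38 ± 0.12 and -0.37 ± 0.11) and Ndufs1 (-0.40 ± 0.10 with formulation and -0.31 ± 0.10 with nano ZnO) were the next in pregnant mice, and Uqcrc2 was at -0.29 ± 0.10 with micro ZnO; none was called. Lower without overlap were 7 genes with formulation, 3 with micro ZnO and 6 with nano ZnO, where 1.48%, 0.585% and 0.624% of all probe sets were. The shares of bright probe sets without overlap are not given here, so an excess over probe sets of like brightness is not shown. All 3 counts rest on the same untreated mice. Ndufaf4 averaged 6.08 ± 0.16 (SD) with formulation, 6.16 ± 0.40 with micro ZnO, 6.12 ± 0.23 with nano ZnO and 6.10 ± 0.24 in untreated pregnant mice. Without micro ZnO replicates 3 and 4 still 0 genes were called, and the median change of the 93 with micro ZnO was 0.01, in place of -0.06 with them. Among the pregnant treated arms, micro ZnO against formulation had 0 genes with an unadjusted p under 0.05, nano ZnO against formulation 1 (Ndufaf5, 0.29 ± 0.11) and nano ZnO against micro ZnO 1 (Ndufb3, -0.24 ± 0.11), where 7%, 3.07% and 4.64% of all probe sets had one.

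Whether pregnant and virgin mice responded differently was tested as the difference of the 2 responses. Of the 93 genes 0 were called for formulation, micro ZnO or nano ZnO (background 0.145%, 0.047% and 0.0427%), and 16, 4 and 4 had an unadjusted p under 0.05, as did 10.2%, 7.43% and 6.26% of all probe sets. In the brightest 20% it was 11.9%, 8.18% and 6.6%, against 11, 1 and 1 of the 74 bright genes. The smallest p for formulation was that of Sdhaf4, which protects flavinated Sdha (0.59 ± 0.19, adjusted p = 0.221). Its second row gave the opposite sign, -0.16 (adjusted p = 0.759). For Ndufaf4 the response in pregnant mice minus that in virgin mice was -0.50 ± 0.21 with micro ZnO (adjusted p = 0.566) and -0.47 ± 0.21 with nano ZnO (adjusted p = 0.751). For Ndufs1 and Sdha no difference was called, so a response limited to virgin mice is not shown.

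Untreated pregnant liver held lower transcript levels than untreated virgin liver for 52 of the 93 genes and higher levels for 3, after all 46 arrays had been given one distribution (background 17.8% lower and 14% higher). In the brightest 20% of probe sets 21.4% were lower, against 46 of the 74 bright genes. The median change was -0.23 over the 93 genes, -0.02 over all probe sets and -0.03 over the brightest 20%. Lower were 20 of 34 complex I genes, 3 of 4 of complex II, 5 of 8 of complex III, 7 of 11 of complex IV, 12 of 17 of the ATP synthase, 3 of 11 assembly factors and 2 of 8 isoforms. The 2 states were separate experiments, so pregnancy and experiment cannot be told apart.

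**Figure D5:**
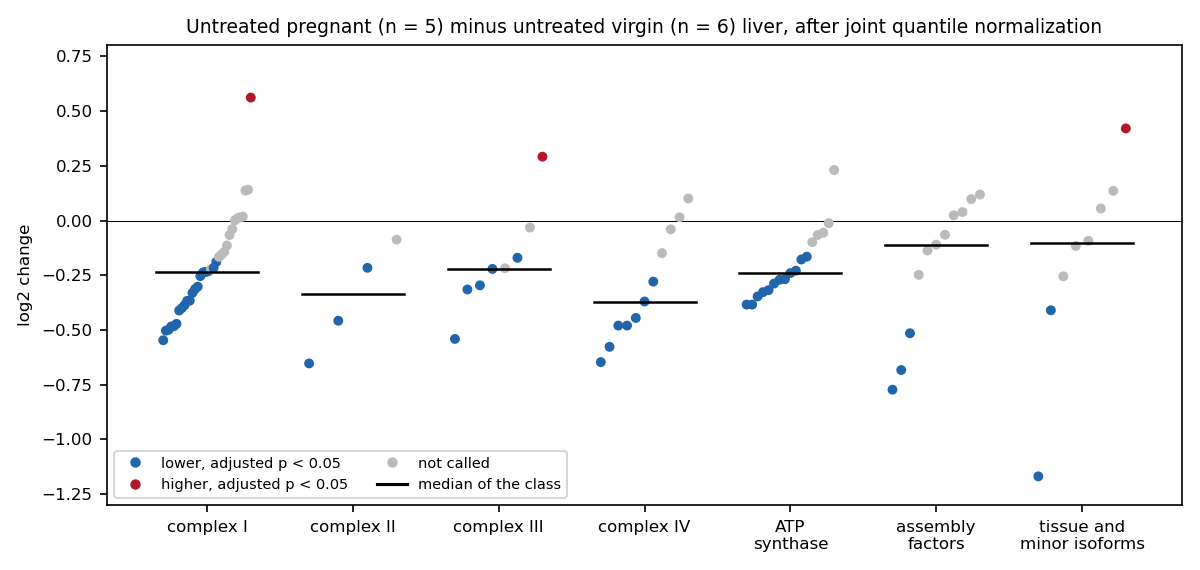
Log2 change of each of the 93 genes in untreated pregnant (5 mice) minus untreated virgin (6 mice) liver (y axis), by class (x axis), after joint quantile normalization. Blue and red points were called lower and higher, and bars are class medians, which are below 0 in every class.

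Sdhd, a membrane anchor of complex II, had 8.63, 8.88, 8.80, 8.59 and 8.60 in pregnant mice, against a lowest, median and highest of 9.32, 9.34 and 9.42 in virgin mice. The 2 ranges lay well apart, and the change was -0.65 ± 0.09 (adjusted p = 2.16e-07). Ndufa4, a subunit of complex IV first assigned to complex I, had 10.52, 10.47, 10.32, 10.14 and 10.23, against 10.94, 10.96 and 11.06 in virgin mice (-0.65 ± 0.09, adjusted p = 1.90e-07). Cox7b, also of complex IV (-0.58 ± 0.09), Ndufs3, a core subunit of complex I (-0.55 ± 0.09), and Uqcr10, a small subunit of complex III (-0.54 ± 0.09), were lower too. Cox7a1, the heart and muscle form of subunit 7a, changed most, by -1.17 ± 0.10, between dim values of 3.49 ± 0.15 (SD) in pregnant and 4.66 ± 0.10 in virgin mice.

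The catalytic subunits of the ATP synthase, which had not been called with formulation, were lower here: Atp5a1 by -0.32 ± 0.06 (adjusted p = 3.99e-05) and Atp5b by -0.24 ± 0.07 (adjusted p = 0.00423). Of the assembly factors Ndufaf3 (-0.77 ± 0.08), Sdhaf4 (-0.68 ± 0.14) and Ndufaf6 (-0.52 ± 0.13) were lower; the second row of Sdhaf4 was at -0.25 (adjusted p = 0.0554). Higher in pregnant mice were Ndufb7, a membrane arm subunit (0.56 ± 0.09, adjusted p = 9.67e-06), Cox8b (0.42 ± 0.12) and Uqcrfs1 (0.29 ± 0.09). Ndufb7 had 8.78, 8.86, 8.85, 8.63 and 8.31 in pregnant mice, above all virgin values of 8.04, 8.15 and 8.18. On the values as deposited, with all genes shifted by -0.61, 91 of the 93 were lower and none higher, Ndufb7 was at 0.09, and Uqcrfs1 and Cox8b turned to -0.16 and -0.33.

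Genes around the chain moved with it: Cycs was lower by -0.79 ± 0.12, Cyc1 by -0.38 ± 0.07 and Atpif1, an inhibitor of the reversed ATP synthase, by -0.68 ± 0.10. Ppargc1a (-0.08 ± 0.32) and Tfam (-0.17 ± 0.15) were not called. Of 18 tricarboxylic acid cycle and pyruvate dehydrogenase genes 7 were lower and 1 higher. Of 77 mitochondrial ribosomal protein genes 27 were lower and 5 higher. Among all probe sets 17.8% were lower and 14% higher, and among the brightest ones 21.4% were lower. Neutrophil markers were higher in pregnant mice, 9 of 12, and their part in these values was not tested.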

How the data were processed

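Liver RNA of 46 mice was measured on Affymetrix whole-transcript arrays. The deposited log2 values were made by the authors with RMA, per the submitters' processing notes; the version is not given in the sources used here. Virgin and pregnant arrays have different medians and were fitted apart. The members, gene lists and tests were chosen with earlier results of these data known. Genes were named through the platform annotation, and all 93 matched RefSeq by Entrez ID. Each comparison was a limma 3.58.1 fit (R 4.3.3) of the 4 groups of an experiment, two-sided, with Benjamini-Hochberg adjustment over 23410 probe sets. Differences of response came from a fit of all 8 groups. Untreated pregnant and virgin mice were compared after quantile normalization of all 46 arrays together. The labels call the samples biological replicates. The number of arrays limits the precision, and no counts underlie the values. Scripts were tested on simulated data.

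A fixed list of 22 genes, among them Ndufs1, Sdha, Cox4i1 and Atp5a1, could be named in any comparison. Not all of them are given in each. Beside these, up to 6 called genes with the largest rise and 6 with the largest fall could be named. Where none was called, the 3 with the smallest p could be. From the other lists, up to 4 genes with the smallest p and Cyc1, Cycs, Ppargc1a, Tfam and Atpif1 could be named; other genes named were chosen after their values were seen. Alternatives were a filter on the dimmest 40% of probe sets, all probe sets, moderation with an intensity trend, array weights, further quantile normalization, array width as a covariate, the compared groups alone, the replicate number as a block, the median over a gene's rows, and each array left out. The clock gene score was added as a covariate after seeing the data. Figures were drawn with matplotlib 3.10.9.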

Additional observations from a re-analysis of the deposited data

Results flagged for a closer look

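Each set of values was a gene, the mean deviation of the 93 genes or the array width in 1 group. Of 168 such sets, 11 held 1 array far from the rest of its group. About 1 in 20 would do so by chance, but the sets share arrays and are not independent. Formulation replicate 5 of the virgin mice was low in 4 genes: Ndufs1 at 7.92, with the others at 8.34 to 8.56, Ndufb6 at 8.60 (others 8.88 to 8.96), Ndufaf1 at 6.36 (others 6.89 to 7.14) and Ndufaf7 at 5.85 (others 6.23 to 6.37). Without that array 25 of the 93 genes were called against untreated mice, in place of 35. Among virgin nano ZnO mice Ndufs5 was low in replicate 2, at 7.96 (others 8.20 to 8.26), and Atp5b high in replicate 1, at 11.97 (others 11.66 to 11.77). Among untreated virgin mice replicate 2 was low in Ndufs1, at 8.62 (others 8.83 to 8.93), and in Uqcrc2, at 10.15 (others 10.30 to 10.37), and replicate 1 was high in Ndufs4, at 8.71 (others 8.45 to 8.52). In untreated pregnant mice Atp5a1 was high in replicate 4, at 11.06 (others 10.90 to 10.94). The interquartile range of pregnant nano ZnO replicate 2 was 3.23, with the others at 3.10 to 3.14.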

How the results depend on the processing

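Counts of called genes among the 93 moved by over 1.5 times as follows; the causes were not tested. For virgin formulation against untreated (35 called) the count was 22 after further quantile normalization, 0 with array width and 15 with the clock score as added covariates. For micro ZnO against untreated (2) it was 4 without dim probe sets, 5 with array weights and 0 with the clock score. For nano ZnO against untreated (10) it was 5 after further normalization, 3 with array width, 0 with the clock score and 5 with the groups alone. For micro ZnO against formulation (10) it was 17 without dim probe sets, 0 with array width and 6 with the groups alone. For nano ZnO against formulation (8) it was 14 without dim probe sets or with an intensity trend, 0 with array width and 2 with the groups alone. Array weights gave 1 call for pregnant formulation against untreated. Leaving out 1 array gave 25 to 34 for formulation, 1 to 3 for micro ZnO and 3 to 10 for nano ZnO against untreated, 2 to 14 and 3 to 14 for micro and nano ZnO against formulation, 0 to 1 for pregnant micro ZnO and 48 to 56 between untreated mice.

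Replicate numbers showed no clear pairing of the samples. In virgin mice the median correlation was -0.13 for same-numbered arrays (1 of 36 pairs over 0.1) and 0.04 for differently numbered ones. In pregnant mice it was 0.02 (12 of 31 pairs over 0.1) and -0.01. Such a check cannot exclude a pairing. With the replicate number as a block the counts were 26 for formulation, 1 for micro ZnO and 5 for nano ZnO against untreated, 5 for either particle arm against formulation, and 54 between untreated pregnant and virgin mice.

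Coq10b turned to -0.27 with micro ZnO and -0.08 with nano ZnO with the clock score. Between untreated pregnant and virgin mice 91 genes were called on the values as deposited, and 17 of the 93 turned from positive to negative. Among them were Ndufs1 (-0.43), Ndufa6 (-0.32), Ndufa4l2 (-0.50), Ndufaf4 (-0.39), Ndufaf7 (-0.45), Uqcrfs1 (-0.16), Cox5a (-0.36), Cox6a1 (-0.42), Cox4i2 (-0.58) and Cox8b (-0.33).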
